A study of Mus musculus with 8 samples.

Results

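RNA of lymphocyte genes was measured in tuft cells sorted from the jejunum of mice. The 10 genes described here are Cd3e, Cd3g, Cd3d, Cd8a, Cd7, Gzma, Gzmb, Nkg7, Ccl5 and Itgae. They serve here as markers of the T cells that lie within the gut epithelium, though not all are confined to such T cells. The 10 genes were chosen by symbol as a readout of lymphocyte RNA in the sorted cells. They make up 10 of the 35199 genes listed in the count table, of which 21805 had at least 1 count. All 10 had counts, and 9 passed the expression filter that left 12849 genes for testing. Nkg7 did not pass it, and its fold change and p-value come from the same test on all genes with a count.

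All 8 mice carried Dclk1-DTR-ZSgreen, a bacterial artificial chromosome transgene in which a diphtheria toxin receptor and the green fluorescent protein ZSgreen are driven by the regulatory region of Dclk1, a kinase gene expressed in tuft cells. The mice were 8 to 10 weeks old. Scopolamine, an antagonist of muscarinic acetylcholine receptors, was delivered for 7 days to 4 mice through implanted osmotic pumps (daily dose 0.5 mg per kg), and 4 sham mice received sodium chloride. Live cells high in an epithelial surface marker and positive for ZSgreen were sorted, 3000 cells for scopolamine 1 and sham 1 and 4000 for every other library, and each mouse gave 1 library. The comparison asks how the sorted cells differ after 7 days of muscarinic blockade, and the 10 genes give the lymphocyte RNA present in each sort.

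Intraepithelial lymphocytes are T cells wedged between the absorptive cells of the gut lining. Many carry CD8 alpha homodimers and store granzymes, and they are retained by the alpha E integrin, which binds E-cadherin on epithelial cells. Because they adhere tightly to epithelium, they are known to travel with it when the tissue is dissociated. In bulk RNA of sorted cells, a smaller number of lymphocytes and less RNA per lymphocyte cannot be told apart.

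Totals ran from 14343362 to 20857433 counts with scopolamine and from 25769940 to 41428916 in sham, so that even the shallowest sham library exceeded the deepest of the other group, and depth and treatment cannot be told apart. A floor of 3 counts corresponded to 0.0729 to 0.212 CPM (counts scaled to library size). All levels are in this unit, with library sizes corrected by TMM, edgeR's adjustment for differences in RNA composition. Intervals and floors cover counting error only. The label of the sorted cells held: the summed level of 20 tuft cell genes ran from 16734 to 27941 CPM with scopolamine and from 22934 to 26429 in sham. The study's source data record that sham 1 and sham 3 were amplified from less RNA with more cycles than the other 6 libraries. Mouse IDs began with the letter M for scopolamine 1 to 3 and sham 1, and with N for scopolamine 4 and sham 2 to 4, a difference not explained in the sources used here. Library sham 1 stood apart from the other sham libraries in the lymphocyte genes, and results are therefore given with and without it.

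The genes of the CD3 subunits lie together on chromosome 9. On GRCm38, Cd3e occupies chr9:44998740-45009627 and Cd3g chr9:44969572-44980431, both on the minus strand. Cd3d occupies chr9:44981786-44987339 on the plus strand, and its start lies 1355 bases from that of Cd3g. The promoters of these genes and of both granzyme genes are printed because the CD3 genes share a locus and because the granzymes gave the most abundant cytotoxic RNA. RefSeq promoters on GRCm38.p6 were matched for 7 of the 10 genes, each running from 250 bases before the start to 50 after it. Ccl5, Itgae and Cd7 are named only. Capitals in these windows mark a motif or its reverse complement. In Cd3e and Cd3d the motif is AGGAAG, the core that transcription factors of the ETS family recognise. In Cd3g it is AGATAA, recognised by the GATA family, whose members include a T cell regulator. In both granzyme genes it is TGTGGT, the core recognised by RUNX factors.
Cd3e (chr9:45009562-45009861, minus strand): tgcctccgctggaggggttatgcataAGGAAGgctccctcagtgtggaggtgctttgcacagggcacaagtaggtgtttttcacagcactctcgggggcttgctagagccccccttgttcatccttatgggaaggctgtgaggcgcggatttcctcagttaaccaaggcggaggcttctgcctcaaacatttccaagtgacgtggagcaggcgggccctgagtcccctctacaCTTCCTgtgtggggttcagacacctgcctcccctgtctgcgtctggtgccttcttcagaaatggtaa
Cd3g (chr9:44980382-44980681, minus strand): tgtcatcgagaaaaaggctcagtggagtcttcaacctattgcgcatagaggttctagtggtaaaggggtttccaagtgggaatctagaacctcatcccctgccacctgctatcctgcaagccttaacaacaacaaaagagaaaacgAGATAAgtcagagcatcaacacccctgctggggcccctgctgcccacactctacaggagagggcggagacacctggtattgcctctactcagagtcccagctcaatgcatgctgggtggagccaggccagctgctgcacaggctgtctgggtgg
Cd3d (chr9:44981536-44981835, plus strand): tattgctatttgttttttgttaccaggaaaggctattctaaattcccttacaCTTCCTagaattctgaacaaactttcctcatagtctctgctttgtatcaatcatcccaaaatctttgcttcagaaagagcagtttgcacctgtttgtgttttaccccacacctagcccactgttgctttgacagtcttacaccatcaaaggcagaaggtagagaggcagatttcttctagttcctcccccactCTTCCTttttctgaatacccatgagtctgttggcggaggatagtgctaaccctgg
Gzma (chr13:113100932-113101231, minus strand): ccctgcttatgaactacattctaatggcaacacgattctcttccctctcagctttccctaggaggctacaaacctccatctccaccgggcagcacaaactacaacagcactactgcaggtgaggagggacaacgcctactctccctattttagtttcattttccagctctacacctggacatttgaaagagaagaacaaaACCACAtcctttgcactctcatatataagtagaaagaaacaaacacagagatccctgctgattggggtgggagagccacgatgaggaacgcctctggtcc
Gzmb (chr14:56262285-56262584, minus strand): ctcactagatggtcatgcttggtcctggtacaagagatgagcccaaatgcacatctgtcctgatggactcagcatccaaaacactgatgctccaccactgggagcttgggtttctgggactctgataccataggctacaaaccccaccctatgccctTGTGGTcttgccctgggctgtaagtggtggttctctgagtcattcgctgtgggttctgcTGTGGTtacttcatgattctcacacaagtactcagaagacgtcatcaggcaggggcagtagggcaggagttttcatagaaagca
Both strands were searched for these letters and for the T-box core GGTGTGA. The RUNX letters were in 3 of the 7 windows (Gzma, Gzmb and Nkg7) and in 16.8% of all 32851 promoter windows of the same length. The ETS letters were in 3 (Cd3e, Cd3d and Nkg7) against 35.4% of all windows, the GATA letters in 1 (Cd3g) against 11.2%, and the T-box letters in 1 (Nkg7) against 3.98%. The Gzmb window held the RUNX letters at 2 places, starting 93 and 34 bases before the transcription start, and in Gzma they started 50 bases before it. The Cd8a window held none of the 4. In Nkg7 no stretch of the RUNX, ETS and T-box letters overlapped another. A match of letters is a description of the window and not a binding site.

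Summed over the 10 genes, the lymphocyte level was 54.2, 135, 28.7 and 32.3 CPM in scopolamine 1 to 4 and 165, 4.21, 3.42 and 3.91 CPM in sham 1 to 4. The highest library of all was thus a sham library, while the other 3 sham libraries were the lowest of the 8. The means were 62.6 ± 49.6 CPM with scopolamine and 44.2 ± 80.6 in sham (SD, n = 4 each), a ratio of 1.42. Sham 1 held 42.9 times the mean of sham 2 to 4 and 2.64 times the mean of the scopolamine libraries. Without sham 1, the scopolamine mean was 16.3 times the sham mean, and the lowest scopolamine library was 6.83 times the highest of sham 2 to 4. Without scopolamine 2, the log2 ratio of the means turned from 0.50 to -0.21. Even in sham 1 the summed level was only 0.0165% of the library size as scaled by TMM, and in sham 3 it was 0.000342%.

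**Figure D1:**
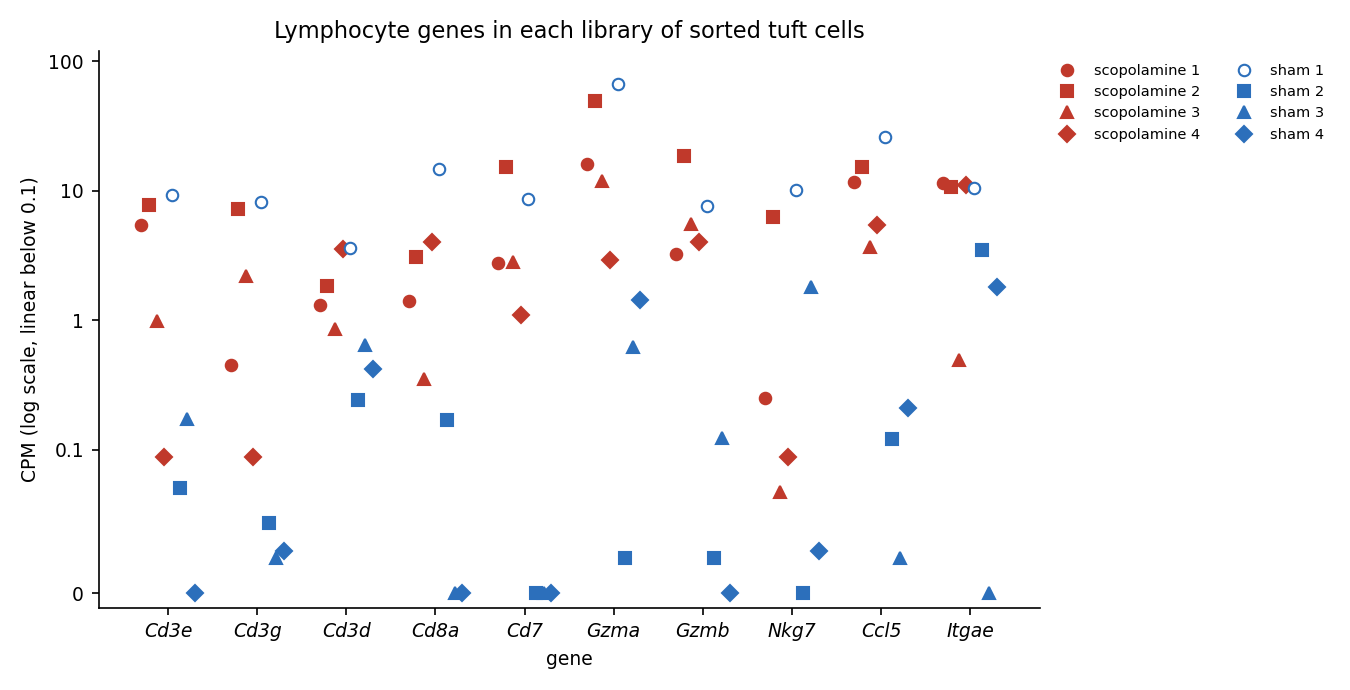
Level in CPM (vertical axis, log scale above 0.1 and linear below) of each of the 10 lymphocyte genes (horizontal axis), with 1 symbol per library, scopolamine in red and sham in blue. Sham 1, the open circle, lies above each other sham library for all 10 genes, and no gene separates the groups.

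The CD3 subunits form the signalling part of the T cell receptor. Cd3e, encoding CD3 epsilon, stood at 5.46, 7.72, 0.99 and 0.09 CPM in scopolamine 1 to 4 and at 9.24, 0.07, 0.17 and 0 CPM in sham 1 to 4. The groups overlapped from both sides, because scopolamine 4 was as low as the low sham libraries and sham 1 was the highest of all. Cd3g, encoding CD3 gamma, followed the same order at its top, with 0.45, 7.25, 2.19 and 0.09 CPM with scopolamine and 8.18, 0.05, 0.02 and 0.03 in sham. Cd3d, encoding CD3 delta, differed less among libraries, at 1.30, 1.82, 0.85 and 3.55 CPM with scopolamine and 3.6, 0.24, 0.64 and 0.42 in sham. It was the single gene of the 10 above the floor in every library, and it was high in scopolamine 4, where Cd3e and Cd3g were each at 2 counts. In edgeR's quasi-likelihood test the log2 fold change, scopolamine over sham, was 0.59 for Cd3e (SE 1.75, adjusted p = 0.979), 0.28 for Cd3g (SE 1.78, adjusted p = 0.993) and 0.62 for Cd3d (SE 0.98, adjusted p = 0.946). Each was smaller than its standard error. Cd3e overlaps 2 other annotated genes, Gm48719 on the opposite strand and Gm48720 on its own, and whether reads were counted by strand is not given in the sources used here.

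Cd8a (chr6:71373427-71379173, plus strand) encodes the alpha chain of the CD8 co-receptor. It was at 1.40, 3.09, 0.35 and 4.02 CPM in scopolamine 1 to 4, and at 14.6, 0.17, 0 and 0 CPM in sham 1 to 4. Sham 1 alone exceeded every scopolamine library, and the fitted log2 fold change was -0.73 (SE 1.83, edgeR adjusted p = 0.977), turning to 5.15 without sham 1. Cd8b1, which encodes the beta chain found on conventional CD8 T cells, had 0 to 2 counts in each library, at or under the floor in all 8. Cd4, the co-receptor of helper T cells, had 0 to 10 counts. Cd7 (chr11:121036747-121039418, minus strand), a surface protein of T and NK cells, was at 2.76, 15.3, 2.82 and 1.09 CPM with scopolamine and at 8.59, 0, 0 and 0 CPM in sham. Every scopolamine library held Cd7 RNA and 3 of the 4 sham libraries held no count of it. Its log2 fold change was 1.36 (SE 1.94, edgeR adjusted p = 0.934). Without sham 1 the scopolamine mean was at least 69.6-fold higher than the mean floor of 3 counts per library in sham 2 to 4. Cd7 overlaps Gm11775 on the opposite strand.

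Granzyme A, a serine protease of cytotoxic granules, gave the largest summed count of the 10. Gzma (chr13:113093825-113100981, minus strand) was at 16.1, 49.2, 11.8 and 2.88 CPM in scopolamine 1 to 4 and at 66.9, 0.02, 0.62 and 1.43 CPM in sham 1 to 4. Sham 1 and scopolamine 2 were the highest, and sham 2 held 1 count against 1767 in sham 1. Granzyme B triggers apoptosis in target cells. Gzmb (chr14:56258838-56262260, minus strand) was at 3.26, 18.6, 5.5 and 3.97 CPM with scopolamine and at 7.57, 0.02, 0.12 and 0 CPM in sham. Here scopolamine 2 was the highest library and sham 1 the second highest. The log2 fold changes were 0.22 for Gzma (SE 1.55, edgeR adjusted p = 0.994) and 2.03 for Gzmb (SE 1.64, edgeR adjusted p = 0.874), the latter the largest and the one with the smallest adjusted p of the 10 genes. The 6 neighbouring granzyme paralogs Gzmc, Gzmd, Gzme, Gzmf, Gzmg and Gzmn were listed with 0 counts in all libraries.

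Nkg7 (chr7:43437073-43438249, plus strand), a membrane protein of cytotoxic granules, was uneven. It had 5, 133, 1 and 2 counts in scopolamine 1 to 4 and 266, 0, 73 and 1 counts in sham 1 to 4. In scopolamine 2, sham 1 and sham 3 it was well above the floor, whereas 4 of the other 5 libraries were at or under 3 counts. Its log2 fold change was -0.85 (SE 1.80, edgeR adjusted p = 0.939, test on all genes with a count) and 1.41 without sham 1. Perforin (Prf1), which opens the pores through which granzymes pass, had 17 counts in scopolamine 2 and 0 or 1 in every other library. Gzmk, another granzyme gene, had 88 counts in sham 1 and 0 in the other 7 libraries.

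Ccl5 (chr11:83525778-83530518, minus strand) encodes a chemokine stored by memory and intraepithelial T cells. It was at 11.7, 15.3, 3.67 and 5.44 CPM in scopolamine 1 to 4 and at 26.0, 0.12, 0.02 and 0.21 CPM in sham 1 to 4. The 3 low sham libraries lay far under every scopolamine library, and sham 1 lay above them all. The log2 fold change was 0.46 (SE 1.57, edgeR adjusted p = 0.985), and without sham 1 it was 6.19 (SE 1.07, edgeR adjusted p = 0.199), the smallest adjusted p that any of the 10 genes had in that fit.

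Itgae (chr11:73090583-73147446, plus strand), which encodes the alpha E integrin, also called CD103, departed from the other genes. It was at 11.5, 10.6, 0.49 and 11.1 CPM with scopolamine and at 10.4, 3.50, 0 and 1.79 CPM in sham. Sham 2 and sham 4 held 144 and 60 counts, more than of any other of the 10 genes there, whereas scopolamine 3 held 7. The log2 fold change was 1.10 (SE 1.33, edgeR adjusted p = 0.917). Itgae encloses Haspin, a kinase gene on the opposite strand, and whether any reads of the pair were mixed was not examined. Its partner chain gene Itgb7 had 0, 88, 97 and 9 counts with scopolamine and 70, 92, 0 and 0 in sham, so that scopolamine 1 and sham 4 held Itgae without a count of Itgb7.

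On the linear scale, the spread of the summed CPM within groups exceeded the difference between them (62.6 ± 49.6 with scopolamine, 44.2 ± 80.6 in sham). None of the 10 genes passed an adjusted p of 0.1 or an unadjusted p of 0.05 in edgeR. Among all 12849 genes tested, 0 (0%) passed the adjusted threshold, and 428 (3.33%) had an unadjusted p under 0.05 and were higher with scopolamine, with 342 lower. DESeq2 gave 193 calls at an adjusted p of 0.1 on every listed gene (1.35% of the 14307 with an adjusted p) and 28 on the filtered genes, in neither case with any of the 10 among them. DESeq2 gave no p-value for Gzmb. Limma-voom gave 0 calls. The median log2 fold change was 0.53 over the 10 genes and -0.01 over all genes tested. The groups overlapped in CPM for all 10 genes, while 499 of 12849 genes (3.88%) had groups that did not overlap. An exact permutation test over the 70 assignments of libraries, two-sided, gave a p of 0.114 to 0.429 for the 9 genes tested, where 0.0286 is the smallest that 4 against 4 allow.

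Library sham 1 decided these values. Without it, the median log2 fold change of the 10 genes was 5.25, 7 of the 10 (Cd3e, Cd3g, Cd8a, Gzma, Gzmb, Ccl5 and Cd7) had an unadjusted edgeR p under 0.05 in the direction of scopolamine, and none had an adjusted p under 0.1. Cd3g did not pass the filter in that fit and took its value from all genes with a count, so that among the 8 genes tested the count was 6. The share of all genes tested that were higher at that threshold was then 5.25%. Sham 1 was singled out by its level in these same genes, so these counts describe the libraries and are no separate test. The fit also sets sham 2 to 4, all with N mouse IDs, against scopolamine 1 to 3 with M and scopolamine 4 with N. These fitted values depend on the prior count, since 17 of the 30 values in sham 2 to 4 were at or under the floor and 9 were at 0, against 4 of 50 at or under it in the other 5 libraries. Leaving out both libraries amplified from less RNA gave 8 genes and a median of 5.75, with 6.04% of all genes higher; 7 of the 9 tested were among them. RNA input as a covariate gave 7 genes, 6 of the 9 tested among them, and a median of 5.78, with 4.25% of all genes. Both libraries of less RNA are sham, so that this fit also reads treatment from sham 2 and sham 4 and is not a separate check. Limma-voom on all 8 libraries called 3 of them at that threshold (Gzmb, Ccl5 and Cd7), with 5.24% of all genes. Scopolamine 2 weighed in the other direction: without it the median was -0.03, and 5 of the 10 genes were higher with scopolamine. Sham 3, amplified in the same way as sham 1, had the lowest lymphocyte sum of the 8.

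**Figure D2:**
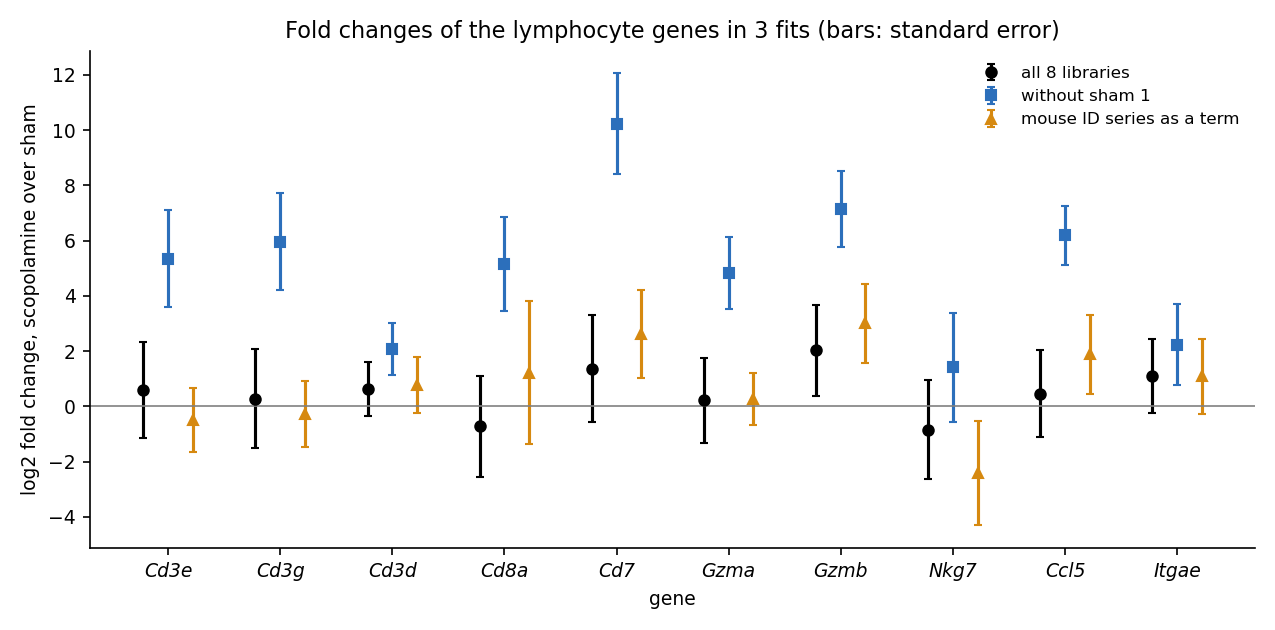
Log2 fold change, scopolamine over sham (vertical axis), with its standard error as bars, for each of the 10 genes (horizontal axis) in 3 edgeR fits. With all 8 libraries the values lie from -0.85 to 2.03. Without sham 1 they lie from 1.41 to 10.23. With the mouse ID series as a term they lie from -2.41 to 3.0.

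The letter of the mouse ID is set beside the levels here as a description only. No p-value for the letter is given, because the pattern was first seen in these values. For Cd3e, Cd3g, Gzma and Cd7, all 4 M libraries lay above all 4 N libraries, as they did for 269 of the 12849 genes tested (2.09%). Gzma was at 36.0 ± 26.5 CPM in the M libraries and at 1.24 ± 1.24 in the N libraries, and Cd3e at 5.85 ± 3.59 and 0.0852 ± 0.0713 (SD, n = 4 each). Cd3d, Cd8a, Gzmb, Ccl5, Nkg7 and Itgae were not separated by the letter. Scopolamine 4, an N library, held 3.55 CPM of Cd3d, 4.02 of Cd8a, 3.97 of Gzmb, 5.44 of Ccl5 and 11.1 of Itgae. The highest N library held 1.81 CPM of Nkg7, against 0.0705 in the lowest M library.
Within the series, the scopolamine libraries of M averaged 25.7 CPM of Gzma against 66.9 in sham 1, and scopolamine 4 held 2.88 against a mean of 0.692 in sham 2 to 4. For Gzmb the M libraries averaged 9.13 with scopolamine against 7.57 in sham 1, and the N library 3.97 against 0.0494. In each series, 1 of the groups is a single library. With the series in the fit, the scopolamine effect was 3.0 for Gzmb (SE 1.43, edgeR adjusted p = 0.862), 2.62 for Cd7 (SE 1.59, adjusted p = 0.868), -0.50 for Cd3e and -0.28 for Cd3g, and the median over the 10 genes was 0.93. What the letter stands for was not tested.

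Enterocyte and myeloid genes were lowest in the same 3 libraries as the lymphocyte genes. The summed level of 20 enterocyte genes, such as Fabp1 and Apoa1, which act in fat uptake, was 3528, 7718, 6660 and 4025 CPM in scopolamine 1 to 4 and 6992, 2710, 2854 and 2686 CPM in sham 1 to 4. The same 3 sham libraries were thus lowest in enterocyte and in lymphocyte RNA, and scopolamine 2 and sham 1 were the top pair in both. All 20 enterocyte genes had a positive log2 fold change, 8 of them with an unadjusted edgeR p under 0.05 and 0 with an adjusted p under 0.1. The 14 goblet and Paneth cell genes were all positive as well, 3 of them with an unadjusted p under 0.05 (median 1.63, against 1.56 for the enterocyte genes), while 16 of 20 tuft cell genes were negative, 1 of them with an unadjusted p under 0.05. Over all 12849 genes tested, 6305 were positive and 428 (3.33%) higher at that threshold, and 6544 were negative and 342 lower. Totals ordered the libraries similarly: the 5 with more lymphocyte RNA had 14343362 to 25769940 counts and the other 3 had 35391538 to 41428916. The sum of the goblet and Paneth cell genes was 734 to 3601 CPM with scopolamine and 373 to 1450 in sham, and that of 16 enteroendocrine genes was highest in sham 3 (1516 CPM) and at 275 CPM in sham 1. Genes of B and plasma cells were summed at 6.18 to 18.3 CPM with scopolamine and 19.8 to 32.6 in sham, a different order. The sum over 15 myeloid genes was 20.2, 23.0, 36.3 and 28.6 CPM with scopolamine and 18.9, 16.3, 18.0 and 15.8 in sham 1 to 4, with sham 1 below the scopolamine libraries here. The sum over 11 stromal and vessel genes varied less (12.8 to 15.6 and 13.5 to 16.01). The part of carried-over enterocytes or of depth in the lymphocyte values was not tested. Thinning every library to the smallest total left the median log2 fold change of the 10 genes at 0.60. Levels are already scaled to library size, so thinning cannot decide the part of either.

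**Figure D3:**
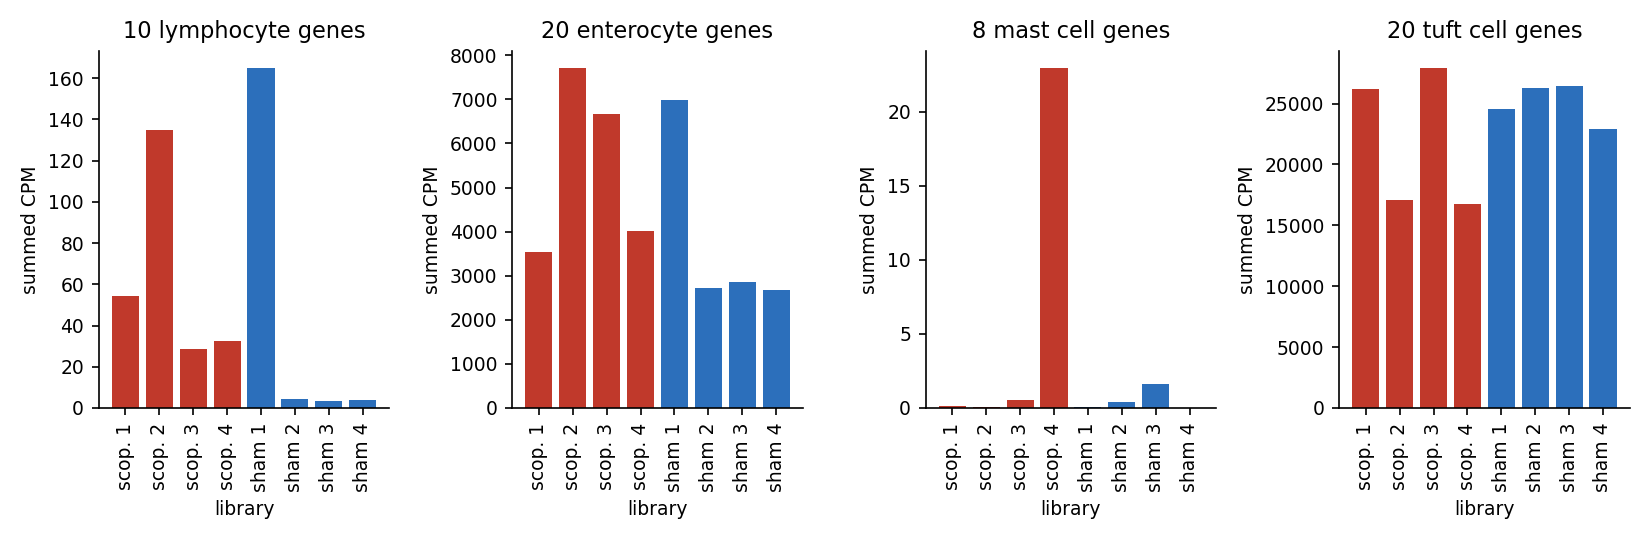
Summed CPM (vertical axis, linear, own scale in each panel) of 4 gene lists in each of the 8 libraries (horizontal axis), scopolamine in red and sham in blue. Lymphocyte and enterocyte genes were both lowest in sham 2 to 4. Mast cell genes reached 23.0 CPM in scopolamine 4, and tuft cell genes lay between 16734 and 27941 CPM.

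The make-up of the lymphocyte counts differed among libraries, though the summed share of the CD3 subunits varied little in 5 of them. The CD3 subunits together took 13.3%, 12.4%, 14% and 11.6% of the counts of the 10 genes in scopolamine 1 to 4 and 12.7% in sham 1, values whose Wilson intervals (95%) all overlapped. The single subunits differed: Cd3e took 10.1% in scopolamine 1 and 0.293% in scopolamine 4, where Cd3d took 10.98%. In sham 2 to 4 they took 8.67%, 24.6% and 11.5% of only 173, 138 and 131 counts. Gzma took 29.8% to 41% in scopolamine 1 to 3 and 40.5% in sham 1, but 8.93% in scopolamine 4 (95% Wilson interval 7.02% to 11.3%), and 0.578%, 18.1% and 36.6% in sham 2 to 4. Itgae took 83.2% in sham 2 (77.0% to 88.1%), 45.8% in sham 4 and 34.3% in scopolamine 4, against 21.2% in scopolamine 1, 6.31% in sham 1 and 1.72% in scopolamine 3. These intervals do not cover the spread between mice, and Itgae shares its locus with Haspin. Ccl5 took 11.3% to 21.6% in the scopolamine libraries and sham 1, and 0.725% to 5.34% in sham 2 to 4.

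**Figure D4:**
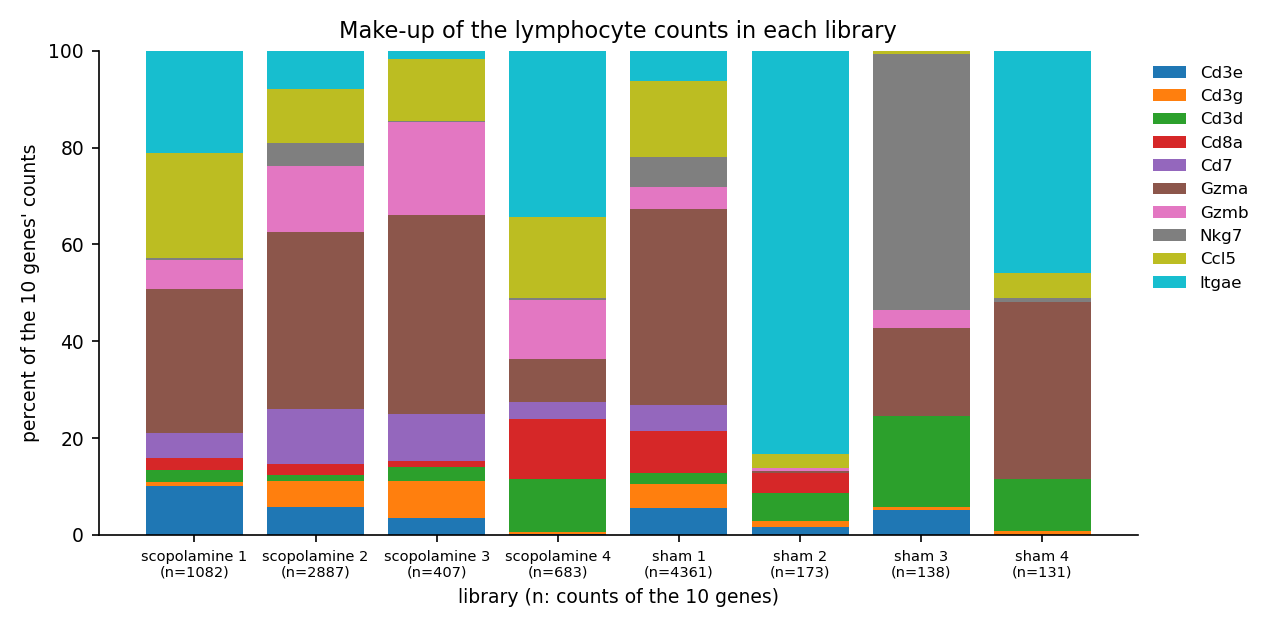
Percent of the counts of the 10 lymphocyte genes (vertical axis) that each gene took in each library (horizontal axis, with the number of counts n under each name). Gzma was the largest part in scopolamine 1 to 3 and sham 1, Itgae in scopolamine 4, sham 2 and sham 4, and Nkg7 in sham 3.

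Per kilobase of the longest annotated transcript, the mean level over all 8 libraries was highest for Gzma (18.7 ± 25.6 CPM per kb, SD, n = 8), then Ccl5 (11.7 ± 13.9), Cd7 (3.89 ± 5.55), Gzmb (3.40 ± 4.32), Nkg7 (2.63 ± 4.30), Itgae (1.60 ± 1.34), Cd3e (1.16 ± 1.52), Cd3d (0.960 ± 0.830), Cd8a (0.943 ± 1.58) and Cd3g (0.899 ± 1.35). No neighbours in this order differed by more than their spread. By the median over the libraries, Nkg7 was at 0.196 CPM per kb, lower than all but Cd3g (0.107), and Gzma (7.36) and Ccl5 (6.81) were again the highest. In single libraries, Gzma was the highest of the 10 in scopolamine 2, scopolamine 3, sham 1 and sham 4, Ccl5 in scopolamine 1 (17.5 against 16.2 for Gzma) and scopolamine 4 (8.14 against 2.89), Itgae in sham 2 and Nkg7 in sham 3. Across the 8 libraries, the log2 level of a gene followed the mean of the others most closely for Cd7 (Pearson's r = 0.97) and Ccl5 (0.96) and least for Nkg7 (0.59) and Itgae (0.55). Among all other genes tested, those with the highest Pearson's r to the mean of the members over the 8 libraries were Gm10382 (0.988), Mdfic (0.967), Sft2d2 (0.963), Mast1 (0.961), Slc2a5 (0.960) and Il2rg (0.959). Slc2a5 encodes a fructose transporter of enterocytes, and Il2rg the common gamma chain of cytokine receptors, which lymphocytes use. These values describe 8 points that share library depth and cell make-up.

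Other genes of T cell biology were examined as 7 lists. Of the 26 genes of the T cell receptor and its signalling, 5 passed the filter and 0 had an unadjusted edgeR p under 0.05. Trac, the constant region of the alpha chain, was at 1.80, 4.73, 4.16 and 5.06 CPM with scopolamine and 0.871, 1.46, 1.07 and 0 in sham (log2 fold change 2.21, SE 1.13, adjusted p = 0.812). Its groups did not overlap, and sham 1 was not the highest sham library. Groups did not overlap for 499 of all 12849 genes tested (3.88%). Of the 5 tested genes of this list, 2 were higher with scopolamine and 3 lower (median log2 fold change -0.31). Trdc, the constant region of the delta chain used by gamma delta T cells, had 46 counts in scopolamine 2, 36 in sham 1, 1 in scopolamine 4 and 0 elsewhere. Lck, the kinase that starts receptor signalling, had its highest count, 345, in sham 3, and 2 in sham 1. Thy1, a T cell surface protein, was at 9.30 ± 3.98 CPM with scopolamine and 3.69 ± 2.0 in sham (edgeR adjusted p = 0.812), again without overlap (6.71 to 15.2 against 1.26 to 6.06). It had 51 to 174 counts in sham 2 to 4, where Cd3e had 0 to 7.
Lists of cytotoxic granule genes (2 of 7 tested), lymphocyte chemokines and cytokines (4 of 8), gut homing and retention (7 of 12), NK-type receptors (3 of the 12 listed) and lymphocyte transcription factors (3 of 11) also had 0 genes with an unadjusted edgeR p under 0.05. Srgn, the granule proteoglycan, had 301 counts in sham 1 and 2 to 88 elsewhere, and Ctsw, a protease of cytotoxic cells, had 176 in sham 1 and 1 to 114 elsewhere. Il2rg had 179 counts in sham 1, 1 to 4 in sham 2 to 4 and 21 to 63 with scopolamine, and Il2rb, the beta chain of the same receptor, followed with 153, 0 to 26 and 24 to 73. Ltb, a cytokine of lymphocytes, was present throughout, at 24.5 ± 9.60 CPM with scopolamine and 20.5 ± 6.32 in sham.
In the homing list, Gpr18 and Gpr55, both receptors found on intraepithelial lymphocytes, were at 16.2 ± 7.45 and 15.0 ± 3.61 CPM with scopolamine against 14.7 ± 4.16 and 8.0 ± 3.0 in sham. In sham 2 to 4 Gpr18 had 341 to 597 counts and Gpr55 152 to 361, where Cd3e had 0 to 7. Gpr55 was at 12.3 to 20.2 CPM in the scopolamine libraries and at 9.16, 8.29, 3.76 and 10.8 CPM in sham 1 to 4. Its groups thus did not overlap (log2 fold change 0.91, SE 0.44, edgeR adjusted p = 0.812), as for 3.88% of all genes tested. Sham 1 lay among the other sham libraries. Of the NK-type genes, Fcer1g and Tyrobp, both signalling adaptors, had 44 and 69 counts in sham 1 against 0 to 3 in sham 2 to 4, whereas Hcst, the adaptor of NKG2D, had 27 against 62 to 71. Among transcription factors, Bcl11b and Ahr were at 40.98 ± 12.2 and 17.3 ± 3.0 CPM with scopolamine and 47.1 ± 6.48 and 12.5 ± 5.21 in sham. Tcf7, a factor of T cells, had 679 counts in sham 3, 72 in sham 2, 64 in scopolamine 1 and 0 in the other 5 libraries.
The last list held 19 leukocyte genes that tuft cells can also express. Of its 15 genes tested, 1 had an unadjusted edgeR p under 0.05: Lcp1, an actin-bundling protein, with a log2 fold change of 1.90 (SE 0.82, adjusted p = 0.812). Fyb and Ptpn18, both signalling proteins, averaged 1663 and 1436 CPM with scopolamine and 1833 and 1663 in sham. In sham 2 to 4 Fyb had 55645 to 76518 counts, in the same libraries where Cd3e had 0 to 7.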

How the data were processed

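Adaptors were trimmed and reads were assigned by the authors to the mouse transcriptome of GRCm38 with kallisto 0.44.0 after bcl2fastq 2.20 (versions from the submitters' processing notes) and summed per gene with tximport. The authors deposited estimated counts per gene, without normalization. Rounding them to whole numbers changed 0 values, and 0 columns of per-sample values were unmapped. The annotation release and strand use are not given in the sources used here. Groups came from the sample labels. Replicate numbers name mice and pair nothing. No libraries agreed within sampling noise (smallest chi-square per degree of freedom within a group 70.2).

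Groups were compared in R 4.3.3 by the quasi-likelihood test of edgeR 4.0.16 after TMM scaling and filterByExpr. P-values were adjusted by the method of Benjamini and Hochberg over all genes tested, with a threshold of 0.1. The standard error is the absolute log2 fold change divided by the square root of F. Likeness used log2 CPM with a prior count of 2. Alternatives were voom from limma 3.58.1, DESeq2 1.42.0 and its size factors, scaling by library size alone, edgeR's robust fit, 2 other filters (none, and at least 10 counts in every library), RNA input, mouse ID series, thinning (every library to the smallest total) and leaving out each replicate. RNA input and mouse IDs were taken from the study's source data. DESeq2 on every listed gene was added after values were seen. The fits were tested on simulated data with 200 changed genes. Coordinates and overlaps are from GENCODE M21 on GRCm38.

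The members and lists were chosen with earlier results of these data known. Named were all 10 members, the 3 genes of each lymphocyte list with the highest mean CPM (1 of them is not reported here), and the 10 genes most like the members, of which 6 are printed. The comparison of M with N libraries by overlap was also chosen after values were seen. Other list genes named (Cd8b1, Cd4, Prf1, Trdc, Lcp1, and the enterocyte and mast cell genes), Haspin and the granzyme paralogs were chosen after their values were seen.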

Additional observations from a re-analysis of the deposited data

Results flagged for a closer look

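A library was picked out where the gap between it and the nearest other library of its group, divided by the range of the group, exceeded Dixon's 95% critical value for 4 samples. This held for 19 of 52 groups of 4 examined. Chance gives about 5% only for normally distributed values, and many of these CPM values are skewed or at 0. The groups are not independent either, since they share libraries, so the 19 are not set against that rate. Sham 1 accounted for 12 of the 19. It was high within sham for Cd3e (9.24 CPM, next 0.173), Cd3g (8.18), Cd3d (3.6), Cd8a (14.6), Gzma (66.9), Gzmb (7.57), Ccl5 (26.0, next 0.209) and Cd7 (8.59, next 0). It was also high for the summed CPM of the 10 genes (165), of cytotoxic granule genes (21.4), of NK-type receptor genes (5.68) and of enterocyte genes (6992, next 2854).

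Scopolamine 2 was high within its group for Gzmb (18.6 CPM, next 5.5), Nkg7 (6.22), Cd7 (15.3) and the summed NK-type receptor genes (13.5). Scopolamine 3 was low for Itgae (0.494 CPM, next 10.6). Scopolamine 4 was high for summed mast cell genes (23.0 CPM), and sham 3 for summed enteroendocrine genes (1516 CPM). The causes were not tested.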

How the results depend on the processing

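None of the 10 genes passed an adjusted p of 0.1 under any alternative run, so an unchanged call says nothing about the stability of their fold changes. Without scopolamine 2 the median and the summed ratio changed sign. The count of genes with an adjusted p under 0.1, 0 in edgeR, was 28 with DESeq2, 193 with DESeq2 on every listed gene, 9 without both libraries of less RNA, 5 with RNA input as a covariate and 0 to 2 when a replicate was left out. The number of the 10 genes with an unadjusted p under 0.05, 0 in edgeR, was 3 with limma-voom, 8 without both libraries of less RNA, 7 with RNA input as a covariate and 0 to 7 when a replicate was left out, the highest being without sham 1 (6 of the 8 tested, with Cd3g from all genes with a count). The median log2 fold change, 0.53, became 3.43, 5.75 and 5.78 under those 3 settings and -0.035 to 5.25 when a replicate was left out, the lowest being without scopolamine 2. The log2 ratio of summed CPM, 0.50, was 3.92 without both libraries of less RNA and -0.21 to 4.01 when a replicate was left out. In the other lymphocyte lists, 1 gene had an unadjusted p under 0.05 in edgeR, against 16 with no filter, 3 with at least 10 counts in every library, 4 with DESeq2, 10 with DESeq2 on every listed gene, 7 with limma-voom, 5 without both libraries of less RNA, 3 with RNA input, 4 with mouse ID series, 3 after thinning, and 0 to 7 when a replicate was left out. These counts differ among settings with the same number of genes tested as well as between filters. Over all genes, 770 of 12849 had such a p in edgeR, 1001 with limma-voom and 681 with mouse ID series, and 1831 of 21805 with no filter. The list counts are not read as a result about the lists.

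Directions turned for 5 genes. Cd8a was -0.73 and became 3.84 with limma-voom, 4.59 without both libraries of less RNA, 4.6 with RNA input, 1.22 with mouse ID series and 2.18 as the difference of mean log2 CPM in the permutation test. Nkg7 was -0.85 and became 0.35, 6.40 and 6.44 under the first 3 of these. With mouse ID series, Cd3e became -0.50 and Cd3g -0.28. When a replicate was left out, the range was -0.12 to 5.35 for Cd3e, -1.19 to 5.97 for Cd3g, -1.19 to 5.15 for Cd8a, -0.75 to 4.82 for Gzma and -4.37 to 1.41 for Nkg7, with the highest value without sham 1 for all 5. The causes were not tested. The filter at 10 counts in every library left 1 of the 10 genes (Cd3d). In sham 2 to 4, the deepest libraries, 17 of 30 values were at or under 3 counts, where fold changes depend on the prior count. No paired analysis was possible because replicate numbers only name the mice.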

Other observations

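Scopolamine 4 held genes of mucosal mast cells that the other 7 libraries hardly held. Mcpt1 and Mcpt2, which encode mast cell proteases, had 300 and 133 counts there, and Cpa3, encoding a mast cell carboxypeptidase, had 31. No other library had more than 1 count of any of the 3. Hdc, the histamine-forming enzyme, did not follow them and was highest in sham 3 (1.63 CPM).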
